A study of Mus musculus with 8 samples.

Results

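The cells described here are the 1207 cells that the study's annotation of mouse lung labels Mast, of 41106 deposited cells and of 40074 that remained after 1025 cells labelled as multiplets and 7 labelled as cell cycle were left out. They were selected by that label alone, and they make up the whole of cluster 13 of the study's clustering, which holds no cell of another label. The lungs came from Sftpc-CreERT2-mTmG mice on the C57BL/6 background, littermates that all received tamoxifen at 8 to 10 weeks of age, so smoke-exposed and control mice alike carry the Cre driver of the alveolar type 2 lineage and the membrane reporter. Exposure lasted 10 months, with 4 mice given cigarette smoke (CS) from research cigarettes and 4 kept in room air (RA). Right lungs were digested, red blood cells lysed, and CD45+ and CD45- cells separated magnetically. They were mixed again at a set ratio before droplet capture with 3′ chemistry. The share of immune cells among all cells therefore cannot be read as that of the tissue. Each mouse is 1 library. The CS mice C2, C5, D2 and D5 gave 99, 177, 213 and 264 Mast-labelled cells, and the RA mice F1, F3, M1 and M3 gave 6, 186, 211 and 51.

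Mast cells and basophils are both granulated cells that bind IgE through the high-affinity receptor FcεRI, store histamine and release it together with cytokines and lipid mediators when antigen crosslinks the receptor. Mast cells mature in the tissue under stem cell factor, the ligand of the receptor Kit, and fill their granules with chymases, tryptases and carboxypeptidase A3. Basophils finish their development in the bone marrow, circulate and respond to interleukin 3. In the mouse they are known for Mcpt8 and Prss34, a pair of serine proteases, and for interleukin 4.

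The label was first compared with the genes that define it. Levels are given as the mean over cells of the UMIs (unique molecular identifiers, counted transcripts) per 10,000 UMIs of the cell. UMIs count captured 3′ ends, spliced and unspliced together, so a level is compared between cells and mice and not between genes. Of the genes given to mark the label, Cpa3 (carboxypeptidase A3) reached 6.71 and Ms4a2 (the β chain of FcεRI) 4.63, each the highest of the 32 cell labels. Kit did not follow them. It reached 0.133, rank 14 of 32, and 2.65% of the Mast-labelled cells held a UMI of Kit, against 1.80% of B cells and 1.98% of neutrophils, labels that should lack it. Median depth was 3447 UMIs in Mast-labelled cells, 4055 in B cells and 2295 in neutrophils, so the Kit share lies close to that background. The general capillary endothelial cells, which express Kit, held a level of 4.87 with a UMI in 73.0% of cells.

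The other mast cell genes divided in the same manner. Of 17 genes on the mast list 15 were in the gene list used here, and 6 of these were highest in the Mast-labelled cells: Cpa3, Ms4a2, Fcer1a (the IgE-binding α chain), Hdc (histidine decarboxylase, which makes histamine), Gata2 (a transcription factor of mast cells and basophils) and Slc18a2 (the carrier that loads amines into granules). Fcer1a stood at 5.13, Gata2 at 12.1, Slc18a2 at 7.05 and Hdc at 94.8. These 6 are genes that both cell types use. The chymase gene Mcpt4 and the receptor gene Mrgprb2 of connective tissue mast cells were detected in 0 of 1207 cells, which allows a share of up to 0.249% of cells with a UMI. The chymase gene Cma1 was found in 0.249% of cells, Mcpt1 and Mcpt2 in 0.0829% each, and Mrgprb1 in 0.166%. Mitf, a master regulator of mast cells, was at 0.0293, the lowest of the 32 labels, and Hpgds, the mast cell prostaglandin D synthase, was at 0.0106. The tryptase genes Tpsb2 and Tpsab1 were not in the gene list used here.

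All 8 genes of the basophil list were detected, and 7 were highest in the Mast-labelled cells. Mcpt8 stood at 7.06 with a UMI in 58.2% of cells, Cd200r3 (an activating receptor) at 9.86 in 82.9%, Il4 at 24.1 in 81.1%, and Cyp11a1 (the side-chain cleavage enzyme of steroid synthesis) at 20.4 in 97.2%. Ifitm1 stood at 56.8, Prss34 at 3.87 in 15.2% of cells and Il3ra (the interleukin 3 receptor α chain) at 0.896. Itga2, the integrin subunit recognised by a common basophil antibody, ranked 4 of 32 at 1.53. A UMI of at least 3 of Mcpt8, Prss34, Cd200r3, Il4 and Cyp11a1 was present in 79.9% of the Mast-labelled cells, from 70.4% in D2 to 100% of the 6 cells of F1. Outside the label 23 cells met that count, 5 of them labelled multiplets. As a background for these shares, B cells held a UMI of Mcpt8, Cd200r3, Il4 and Prss34 in at most 0.557% and of Cyp11a1 in 5.01%. No cell in the whole data set held a count of at least 1 of both Mcpt4 and Cpa3. That cutoff is stricter than for the other shares, where any count above 0 was taken as a UMI. Cells with lower counts of the pair are therefore not covered. The data therefore go against the plain reading of the label: what these cells hold are the genes that mast cells and basophils share together with the basophil list, while Kit, Mitf and the chymases are at or near the background. They are called Mast-labelled cells in what follows. In the map of gene levels by label, the upper block shows the split within the mast list and the lower block the basophil list.

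**Figure D1:**
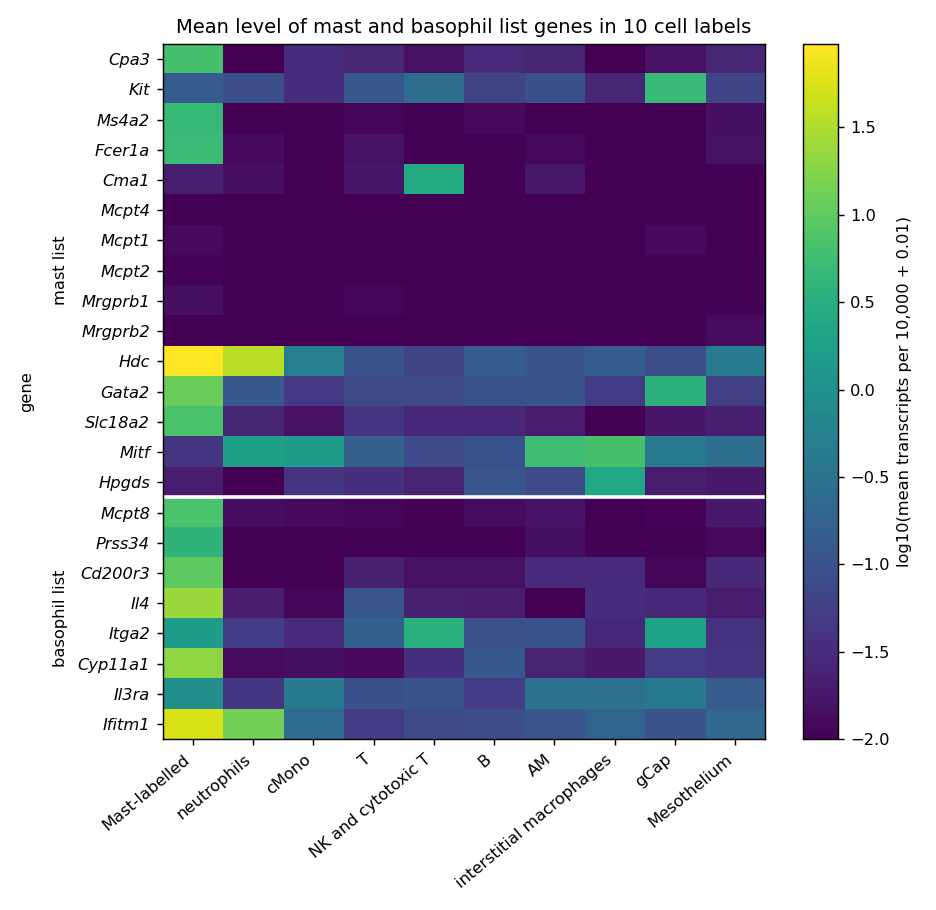
Mean level of the 15 mast list genes (above the white line) and the 8 basophil list genes (below it) in Mast-labelled cells and 9 other cell labels, as log10 of the mean transcripts per 10,000 UMIs plus 0.01. In the Mast-labelled column 6 of the 15 mast genes and 7 of the 8 basophil genes are at their brightest. Itga2 is brighter in NK and cytotoxic T cells and in general capillary endothelium (gCap), where Kit is brightest.

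Markers of most other lineages were low in most of the cells. Prg2 was at 0 and Epx at 0.00448, so the defining granule genes of eosinophils were at or near 0, although Alox15 (1.55) and Ccr3 (0.438) of the same list were highest in the Mast-labelled cells. Summed over its genes, the neutrophil list came to 3.31 against 874 in neutrophils, the T cell list to 0.396 against 28.1 in T cells, the B cell list to 0.261 against 76.8 in B cells, and the alveolar macrophage list to 0.250 against 227 in alveolar macrophages. The platelet list was not low beside other labels, at 2.66 and rank 2 of 32, with its gene Itga2b in 49.2% of cells. The list of group 2 innate lymphoid cells came to 7.13, rank 7, with Il7r in 39.1% of cells and Rora in 27.7%. Ptprc, which encodes CD45, stood at 1.99, rank 13 of 32, and Cd74 of the class II pathway at 3.76. Some lists were carried by few cells. The 10 cells with the highest sums held 91.7% of the haemoglobin list total, 93.5% of the club cell total, 84.3% of the alveolar type 2 total, and 55.6% of the neutrophil total, but 3.38% of the basophil list total. Other lists were spread more widely, with 18.2% of the endothelial total in the top 10 cells and a value above 0 in 53.4% of cells, and 33.2% of the monocyte total with 40.2% of cells above 0. Of the 6 endothelial genes only Pecam1, at 47.7%, was found in at least 10% of cells. Cdh5 and Cldn5 were found in 4.81% and 5.47%. Of the 6 monocyte genes only Ccr2 (27.0%) and Lyz2 (13.8%) reached 10%. Mast-labelled cells ranked 2 of 32 from the low end in median UMIs and in median genes (1390). Of the members 9 carried a barcode that also occurs in another library, as did 394 cells in all.

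The expression profile as a whole was next compared with the other labels, as a description. Of 3740 genes found in at least 10% of the Mast-labelled cells, 407 were highest there, 32 exceeded every other label of at least 50 cells more than 10-fold, and 13 more than 100-fold. The leading genes in order of that ratio were Ms4a2, Prss34, Il4, Fcer1a, Csrp3 (a muscle LIM protein gene), Mcpt8 and Cyp11a1. Il13, Gzmc (granzyme C), Serpinb2, Ccr3 and Il6 were also among the 25 leading genes. Il13, the type 2 cytokine gene next to Il4 on chromosome 11, was found in 31.2% of the cells at 2.17, with the second highest label at 0.0208. The closest profile among labels with at least 20 cells in every mouse was that of classical monocytes (cMono, Pearson r = 0.635 over 6960 genes), followed by T cells (r = 0.598 over 6526 genes). Type 2 conventional dendritic cells (r = 0.661, 127 cells) and mature dendritic cells (r = 0.640, 40 cells) had higher correlations. They did not meet that cell minimum. Genes share libraries and depth here, so these correlations only order the labels.

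Several leading genes varied little from mouse to mouse. In the 7 mice with at least 20 members, Cyp11a1 lay between 17 and 21.7, Cd200r3 between 7.77 and 11.4, Fcer1a between 4.09 and 5.81, and Ms4a2 between 3.82 and 6.64. Prss34 varied more, from 0.523 in C2 to 11.1 in F3, and Gzmc ranged from 1.04 in C2 to 8.84 in M3. The 6 cells of F1 differed from the other mice, with Prss34 at 109, Mcpt8 at 46.6, Cpa3 at 25.7 and Il4 at 5.98.

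A sequence feature that the selection did not use was then counted in the leading genes. AGATAA is a form of the site read by GATA factors, of which Gata2 is expressed in these cells. It was searched on both strands in the 250 bases before each gene start in RefSeq (GRCm38.p6). Of the 25 leading genes 20 had a window, and 11 of these 20 held the motif, compared with 11.4% of 27025 genes with a window and 6.96% of the 3076 genes with a window among those tested between exposures. Gm12602, Gm43386, Gm45237, Gm47599 and Gm7557 had no window. A match is a run of letters and not a binding site. Shown are both FcεRI chain genes with a window, the protease genes Cpa3 and Prss34, and Cd200r3, each 5′ to 3′ on the strand of the gene with AGATAA or its complement TTATCT in capitals.
Ms4a2, chr19:11623720-11623969, minus strand: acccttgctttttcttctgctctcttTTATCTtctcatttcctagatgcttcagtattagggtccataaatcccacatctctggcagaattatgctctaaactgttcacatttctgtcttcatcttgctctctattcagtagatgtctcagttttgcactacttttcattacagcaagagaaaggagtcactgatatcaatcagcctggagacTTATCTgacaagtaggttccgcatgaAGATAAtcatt
Fcer1a, chr1:173227230-173227479, minus strand: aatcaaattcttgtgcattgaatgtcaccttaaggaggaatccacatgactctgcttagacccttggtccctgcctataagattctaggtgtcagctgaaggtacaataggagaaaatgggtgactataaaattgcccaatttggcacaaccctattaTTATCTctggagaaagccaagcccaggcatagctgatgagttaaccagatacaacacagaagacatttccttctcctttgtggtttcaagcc
Cpa3, chr3:20242182-20242431, minus strand: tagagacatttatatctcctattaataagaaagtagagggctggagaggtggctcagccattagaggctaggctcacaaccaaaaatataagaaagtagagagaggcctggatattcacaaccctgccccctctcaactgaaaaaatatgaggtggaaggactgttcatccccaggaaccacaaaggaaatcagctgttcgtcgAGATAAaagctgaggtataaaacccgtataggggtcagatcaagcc
Prss34, chr17:25298144-25298393, plus strand: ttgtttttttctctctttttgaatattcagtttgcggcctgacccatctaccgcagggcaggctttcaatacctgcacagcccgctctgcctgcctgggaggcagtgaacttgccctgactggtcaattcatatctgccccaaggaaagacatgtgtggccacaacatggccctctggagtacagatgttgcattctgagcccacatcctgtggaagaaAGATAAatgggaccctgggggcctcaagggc
Cd200r3, chr16:44943428-44943677, plus strand: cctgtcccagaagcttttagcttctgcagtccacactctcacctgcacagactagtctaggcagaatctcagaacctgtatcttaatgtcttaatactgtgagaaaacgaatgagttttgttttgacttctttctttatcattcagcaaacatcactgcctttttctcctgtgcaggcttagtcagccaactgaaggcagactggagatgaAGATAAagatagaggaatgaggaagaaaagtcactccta
Counted from the last base before the start as -1, the match begins at -46 in Cpa3, -31 in Prss34, -39 in Cd200r3 and -92 in Fcer1a. Ms4a2 held 3 matches, at -224, -37 and -11. Of the other 6 genes with a match, Ccr3 (-30), Dnase2b (-31), Serpinb2 (-41) and Il13 (-81) also held one within 100 bases of the start.

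The IgE receptor and its signalling genes were present with both of the specific chains. Besides Ms4a2 and Fcer1a, the shared γ chain gene Fcer1g stood at 14.5 in 95.4% of cells, though it ranked 7 of 32 because myeloid cells also use it. Among the kinases and adaptors that pass the signal on, Gab2 stood at 13.3, Lyn at 3.44 and Syk at 1.90, the last in 39.0% of cells. Receptors for cytokines that act on these cells were prominent. Csf2rb, the common β chain of the receptors for interleukins 3 and 5 and GM-CSF, stood at 15.6 in 91.3% of cells, Il18rap at 7.80 in 85.7%, Il18r1 at 4.98 in 69.3%, and Il1rl1, the interleukin 33 receptor, at 2.91 in 42.9%. All 4 were highest in the Mast-labelled cells.

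Many secreted mediators were higher in the Mast-labelled cells than in the other labels. Ccl4, a chemokine that attracts monocytes and T cells, stood at 196, or 1.96% of all UMIs, against 31.4 in the next label, interstitial macrophages (M). Ccl3, a related chemokine, stood at 94.6 against 13.4. Il1b at 61.7 was lower than in neutrophils, where it stood at 103. Ccl6 at 47.5 was lower than in alveolar macrophages, where it stood at 56.8. Ccl9 stood at 26.6, Osm (oncostatin M) at 12.6 and Csf1 at 5.06. Il6, at 35.8, was found in 90.3% of the cells, and the next label, adventitial fibroblasts, stood at 2.20. Hgf (hepatocyte growth factor), at 14.6 in 81.4% of cells, was 0.949 in the next label, pericytes. Tnf was lower, at 1.80 in 18.6% of cells, and Areg at 0.566 in 3.15%. Of the eicosanoid genes, Alox5 (2.28) and Alox5ap (18.7), which begin leukotriene synthesis, were expressed, whereas Ltc4s, which makes leukotriene C4, was at 0.00435. In the plot of mediator and protease genes by mouse, the groups overlap for most of the genes shown.

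**Figure D2:**
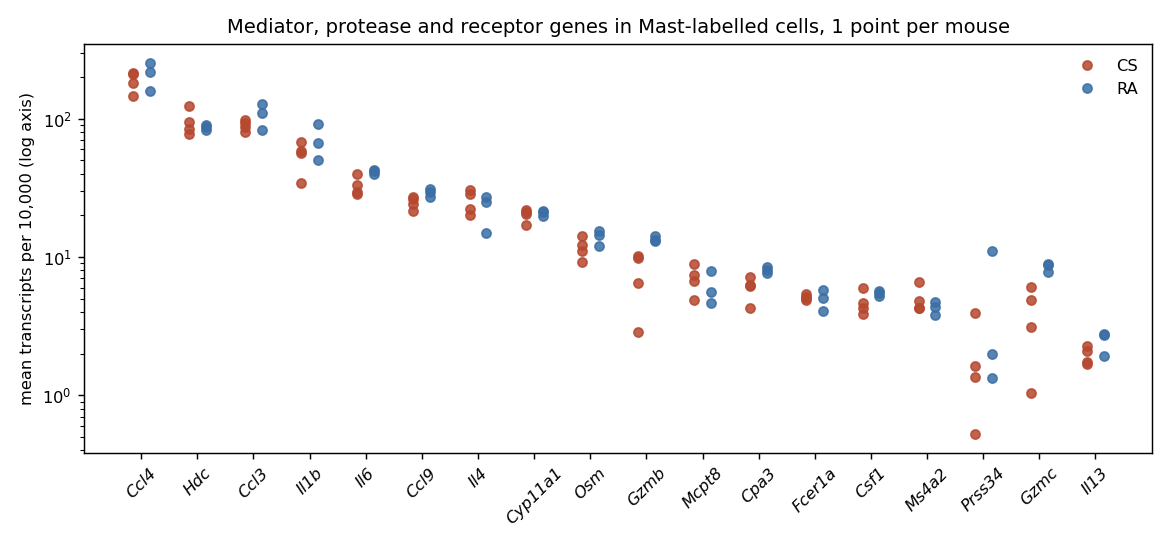
Mean transcripts per 10,000 UMIs (log axis) of 18 genes in the Mast-labelled cells, with 1 point per mouse for the 4 CS mice and the 3 RA mice with at least 20 such cells. Ccl4 lies between 145 and 254 in every mouse, while Prss34 and Gzmc spread most. For Gzmb, Gzmc, Il6, Ccl9 and Cpa3 every CS mouse lies below every RA mouse, as for 3.13% of all genes tested.

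The Mast-labelled cells were clustered again to describe how they vary. The 7 sub-clusters are named by number, and their leading genes are descriptions, since the same cells were clustered. Sub-cluster 2, the largest with 554 cells, was led by Gzmc (10.1 against 2.09 in the rest), Il1b (97.8 against 31), Cd14, Gzmb and Nfkb1. Sub-cluster 1, with 311 cells, was led by Jun (46.7 against 5.78), the inducible chaperone gene Hspa1b, Txnip, Il4 (50.7 against 14.8), Csf1 and Tnf. Sub-cluster 4, with 244 cells, was led by the unnamed gene model Gm49711 (3.27 against 0.477), followed by the immediate-early gene Egr1 (31.1 against 10.6), Cited2 and Ptgs2, the inducible cyclooxygenase gene. The genes that define the profile varied less: Ms4a2 lay between 2.52 and 6.35 over the 7 sub-clusters, Fcer1a between 3.12 and 6.99, and Cyp11a1 between 13.2 and 26.6. Prss34 was at 0.114 in sub-cluster 4 and at 6.09 in sub-cluster 2. After thinning every cell to 1000 UMIs, Prss34 was found in 16.3% of the cells with a UMI of Mcpt8 and in 4.99% of those without.

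The smaller sub-clusters held genes of other cell types or states. Sub-cluster 6 (21 cells) was led by interferon-stimulated genes, with Isg15 at 41.5 against 2.34. Sub-cluster 7 (57 cells) held endothelial genes such as Calcrl, Ramp2 and Cldn5, with the endothelial list at 34.3 against 4.19 over all members, and its median depth was 5848 UMIs. Sub-cluster 5 (11 cells) held Sftpc at 210 and Scgb1a1 at 550, genes of alveolar type 2 and club cells, and sub-cluster 3 (9 cells) held Hbb-bs at 817. No doublet caller was run beyond the study's multiplet label, and whether these 77 cells of sub-clusters 3, 5 and 7 are doublets was not tested. Ms4a2 was still found there, at 2.65 in sub-cluster 3, 3.42 in sub-cluster 5 and 2.52 in sub-cluster 7. The sub-cluster shares are given for each mouse and not compared between exposures, because Gzmc, Gzmb and Jun, which define them, are among the genes with wide exposure differences given below. Sub-cluster 1 made up 35.4%, 27.7%, 24.9% and 30.3% of the cells in C2, C5, D2 and D5, and 16.1%, 25.1% and 21.6% in F3, M1 and M3. All 6 cells of F1 fell in sub-cluster 2.

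**Figure D3:**
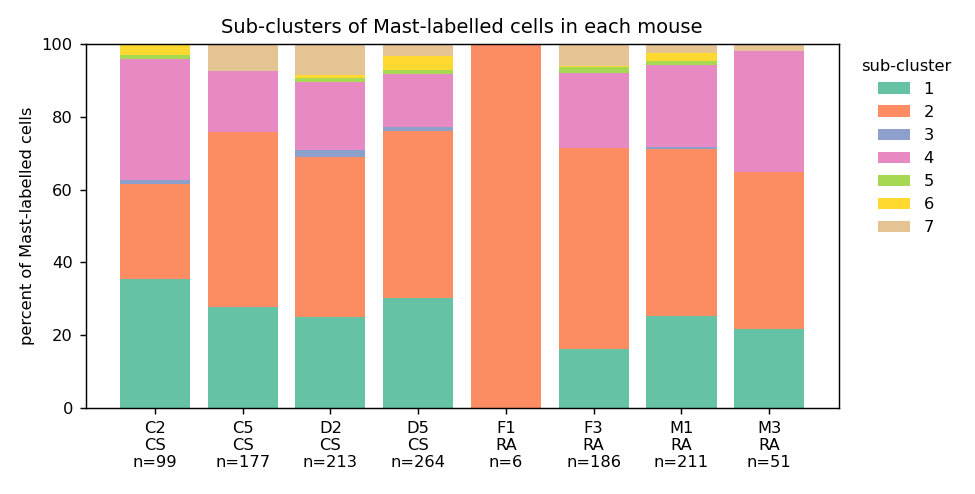
Share of the Mast-labelled cells of each mouse (bars, in percent, with the number of cells below) that fell in each of the 7 sub-clusters. Sub-clusters 1, 2 and 4 hold most cells in the 7 mice with at least 51 cells, and sub-cluster 2 takes 26.3% of C2 and 55.4% of F3.

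Turning to exposure, the first question was whether Mast-labelled cells took a different share of the immune cells. They were 9.55%, 13.9%, 12.9% and 21.8% of the immune cells (13 labels) of C2, C5, D2 and D5, and 0.744%, 17%, 20.4% and 5.35% of those of F1, F3, M1 and M3. The groups overlapped in part: D5 lay above every RA mouse, F1 and M3 lay below every CS mouse, and the other values interleaved. The mean was 14.5% ± 5.18 (SD, n = 4) in CS and 10.9% ± 9.35 (SD, n = 4) in RA, and the difference of 3.65 percentage points did not pass a two-sided exact permutation test (p = 0.486, with 0.0286 the smallest p that 4 against 4 mice allow). Without F1 the RA mean was 14.3% ± 7.90 (n = 3) and the difference 0.273 points. The exact binomial interval of F1's share, 0.274% to 1.61%, and those of the other mice cover counting error only. Libraries ran in pairs of 1 CS and 1 RA mouse on 4 lanes, and within lanes the differences were 8.80, -4.12, -6.49 and 16.4 points, of both signs.

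Depth and the marker share were then compared, since depth moves the share of cells in which a gene is seen. Median UMIs per cell were 4010, 3101, 3159 and 3605 in C2, C5, D2 and D5 and 6153, 3344, 3571 and 4471 in F1, F3, M1 and M3. The CS mean of 3469 ± 425 (n = 4) and the RA mean of 4385 ± 1275 (n = 4) overlapped, and the difference of -916 did not pass (exact permutation test, two-sided, p = 0.229), and without F1 the RA mean was 3795 ± 596. Within lanes the differences were -2143, -185, -470 and -866, lower in the CS mouse of all 4 lanes. As deposited, 84.5% to 100% of the members of a mouse held a UMI of Cpa3, Kit or Ms4a2. When every cell was thinned to 1000 UMIs that share was 61.6%, 59.3%, 57.3% and 54.5% in C2, C5, D2 and D5 and 66.7%, 52.7%, 61.1% and 56.9% in F1, F3, M1 and M3. The group means were 58.2% ± 3.01 in CS and 59.3% ± 5.98 in RA (exact permutation test, two-sided, p = 0.8, n = 4 each). All 3 measures are drawn by mouse in the plot of share, depth and markers.

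**Figure D4:**
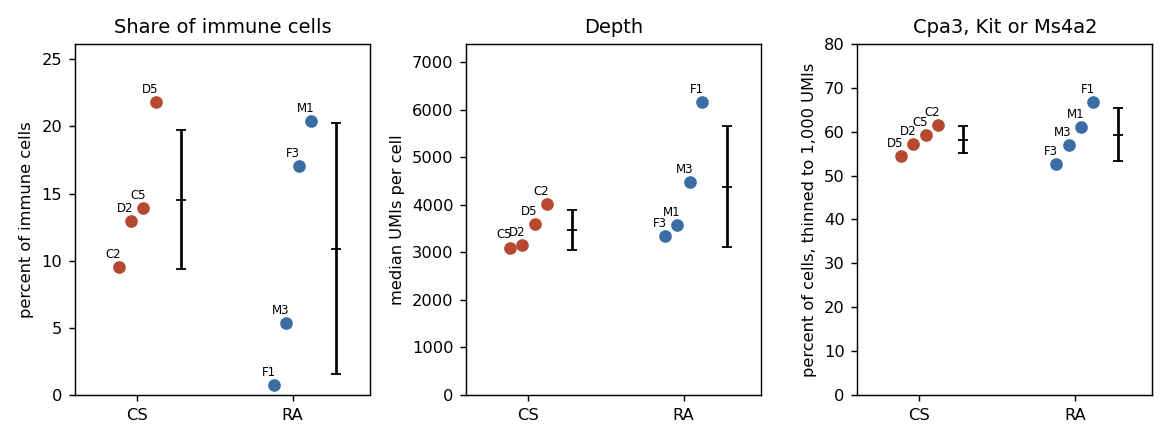
Share of immune cells, median UMIs per cell, and share of cells with a UMI of Cpa3, Kit or Ms4a2 after thinning to 1000 UMIs, for the Mast-labelled cells of each of the 8 mice, with the group mean and SD as black bars. F1, with 6 cells, has the lowest share of immune cells (0.744%) and the highest depth (6153), and the groups overlap in all 3 panels.

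Gene expression was compared between the 4 CS mice and the 3 RA mice with at least 20 Mast-labelled cells, with F1 left out of the fit, so that statements on all CS and all RA mice cover these 7 mice. The fit covered 3996 genes found in at least 10% of the members of either group, and no gene passed limma at an adjusted p under 0.05 (0% of the genes tested), and edgeR on summed counts called 0 genes as well. At an unadjusted p under 0.05, limma counted 319 genes (7.98%), of which 210 (5.26%) were higher and 109 (2.73%) lower in CS. The split depended on the scaling, with 171 higher and 144 lower after quantile normalization and 154 higher and 151 lower in edgeR. Of the genes tested, 174 passed the detection filter through CS only and 328 through RA only, and among the 3494 that passed in both groups 169 were higher and 84 lower at an unadjusted p under 0.05. Every CS mouse lay above every RA mouse for 219 genes (5.48%) and below for 125 (3.13%). The median difference over all genes was 0.02 on the scale of log2(level + 1), the scale of all differences given here, which understates the change of low genes.

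Ctnna3, which encodes αT-catenin, an adhesion protein best known from heart muscle, came nearest to the threshold. Its level was 2.40, 1.99, 1.38 and 1.54 in C2, C5, D2 and D5 and 0.672, 0.516 and 0.396 in F3, M1 and M3. All 4 CS mice lay above all 3 RA mice, with a difference of 0.88 (SE 0.13, adjusted p = 0.118 in limma and 0.0523 in edgeR). The 6 cells of F1 held 0.199. The gene spans chr10:63430098-65003667 on the plus strand (GRCm38) and contains Lrrtm3 on the opposite strand, which stood at 0.0122 in these cells, and smooth muscle cells held the highest Ctnna3 level of all labels, 13.2. In classical monocytes of the same mice Ctnna3 lay between 0.0125 and 0.0834, and the difference between the exposure effects in Mast-labelled cells and monocytes was 0.84 (SE 0.15, adjusted p = 0.0916, limma). The adjusted p in the Mast-labelled cells depended on the setting, at 0.0437 after thinning to 1000 UMIs, 0.0232 with sex read from Xist and Ddx3y as a term, and 0.820 without M3.

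The rule also named the other genes with the smallest unadjusted p, none of which passed. Higher in CS by value were Lyz2, Gla (α-galactosidase A), Rps6ka3, Nck2, Mid1, Arsb, Abtb2, Cstb (cystatin B) and Rasip1, with differences from 0.28 in Cstb to 0.77 in Lyz2. Lyz2, Mid1 and Rasip1 passed the filter on detection through CS only, the group where they are high, so nothing is read from their direction. Abtb2 stood at 12.1, 10.8, 8.42 and 8.53 in C2, C5, D2 and D5 and at 5.01, 7.58 and 6.08 in F3, M1 and M3, a difference of 0.60 (SE 0.16, adjusted p = 0.536, limma). Lyz2 (lysozyme) stood at 299 in alveolar type 2 cells and at 53.5 in sub-cluster 5, and its difference was 0.19 without sub-clusters 3, 5 and 7 and -0.35 with F1 included, where Lyz2 stood at 25.6. Rasip1 stood at 5.23 in general capillary endothelial cells, against 0.403 in all members, and differed by 0.32 without those sub-clusters. The endothelial list sum lay between 3.50 and 5.98 in the CS mice and between 2.28 and 4.80 in the 3 RA mice. Within that sum Pecam1 alone stood at 2.41 to 4.12 in the CS mice and at 1.90 to 2.64 in those RA mice. C2, highest in Rasip1 at 0.694, had 0 cells in sub-cluster 7. The part of endothelial material in the Rasip1 value was not tested. With the 77 cells of sub-clusters 3, 5 and 7 left out, limma again called 0 genes and Ctnna3 differed by 0.90.

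Lower in CS by value were 3110056K07Rik, Arf4 (a small GTPase of the Golgi), Pim1 (a survival kinase induced by cytokine receptors), Cmss1, Dusp2, Dnttip2, Rpl13-ps3, Il10, Mrnip and Jund. Of these 10, 6 (3110056K07Rik, Dusp2, Dnttip2, Rpl13-ps3, Il10 and Mrnip) passed the filter through RA only, where they are high, so nothing is read from their direction. Pim1 stood at 17.5, 22.1, 22.7 and 20.8 in C2, C5, D2 and D5 and at 35.3, 27.6 and 33.4 in F3, M1 and M3. All CS mice lay below all RA mice, with a difference of -0.60 (SE 0.13, adjusted p = 0.536, limma). Arf4 differed by -0.64, with F1 at 2.22 inside the CS range, and Il10, the regulatory cytokine gene, by -0.40, from 0.839 ± 0.296 in RA to 0.379 ± 0.0773 in CS. For Jund, 1 CS mouse (D2, at 33.8) overlapped the RA range of 33.2 to 43.9.

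Gzmb, of the granule list, and Gzmc, one of the leading genes, had wide differences. Gzmb (granzyme B) stood at 2.87, 6.43, 10.1 and 9.82 in C2, C5, D2 and D5 and at 13, 13.3 and 14.1 in F3, M1 and M3. Gzmc stood at 1.04, 4.87, 6.11 and 3.10 in the CS mice and at 8.73, 7.78 and 8.84 in the RA mice. For both genes all CS mice lay below all RA mice and C2 was lowest, with differences of -0.92 for Gzmb (SE 0.30) and -1.13 for Gzmc (SE 0.33), yet neither passed (adjusted p = 0.536 each, limma). Without C2 the Gzmb difference was -0.59, and with equal cell numbers per mouse the Gzmc difference was -0.58. The summed NK cell list lay between 0.137 and 0.740 in these 7 mice, against 137 in NK and cytotoxic T cells, where Gzmb stood at 9.50 and Gzmc was below 0.173. Gzmc lies at chr14:56231441-56234656 and Mcpt8 at chr14:56082166-56085273, both minus strand, in a family of similar genes, so reads that could belong to more than 1 copy may be missing from or added to either. Cpa3 differed by -0.39 (SE 0.15, adjusted p = 0.544, limma) and lay lower in every CS mouse (4.29 to 7.21) than in any of the 3 RA mice (7.62 to 8.50). Of the 7 granule genes tested, 0 passed, 2 were lower at an unadjusted p under 0.05, as were 2.73% of all genes, and the median difference was -0.29. With so few genes on the list nothing is read from that count.

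**Figure D5:**
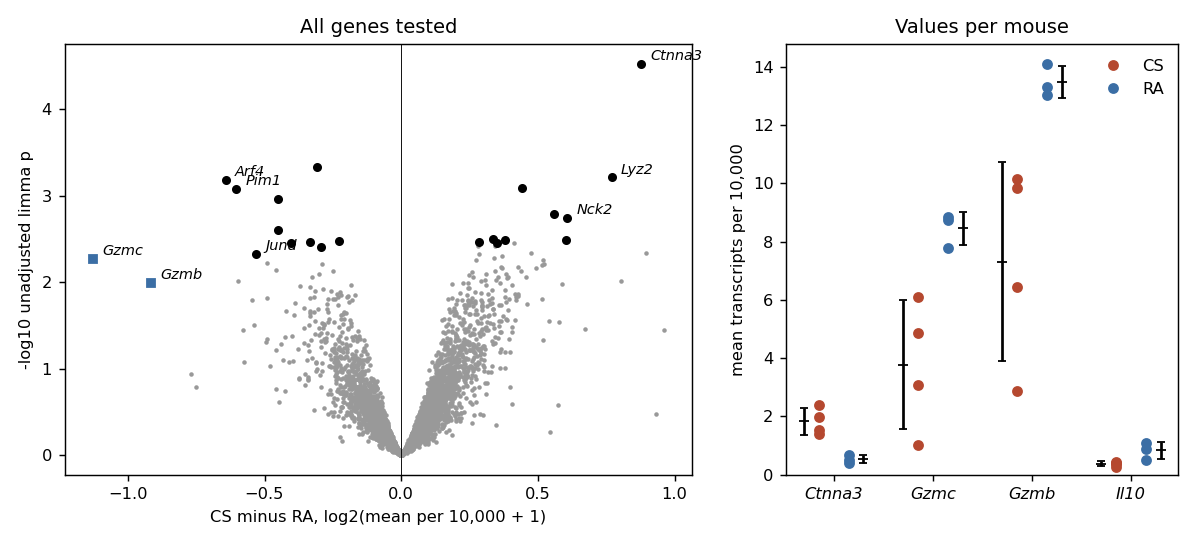
Left, difference between CS and RA on the scale of log2(mean per 10,000 + 1) against -log10 of the unadjusted limma p for the 3996 genes tested, with the 20 genes named by the rule in black and Gzmb and Gzmc as blue squares. Right, values of 4 genes in each mouse with the group mean and SD as black bars: Ctnna3 lies above in all 4 CS mice, and Gzmc, Gzmb and Il10 lie below in all 4, although none passed the adjusted threshold and Il10 passed the detection filter through RA only.

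Genes of the IgE receptor pathway had no call. Of 13 tested, 0 passed, 12 were higher by sign and the median difference was 0.04, beside 56.6% higher by sign and a median of 0.02 over all genes tested. One of the 13 had an unadjusted p under 0.05 and was higher, as had 5.26% of all genes. Inpp5d, the phosphatase SHIP1 that restrains signalling from the receptor, stood at 1.63, 1.37, 1.19 and 1.63 in C2, C5, D2 and D5 and at 0.871, 1.15 and 0.967 in F3, M1 and M3. All CS mice lay above, and it differed by 0.30 (SE 0.11, adjusted p = 0.536, limma). Fcer1a differed by 0.04, with either sign depending on the setting. Ms4a2 differed by 0.16, or by 0.039 to 0.22 when 1 mouse was left out. Among 9 receptor genes 0 passed, and Il1rl1 (0.36) and Il18r1 (0.33) were the 2 with an unadjusted p under 0.05, beside 5.26% of all genes in that direction.

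Cytokine genes likewise had no call. Of 14 tested, 0 passed, 5 were higher by sign (56.6% of all genes), 2 (Il6 and Il10, the latter filtered in through RA only) were lower at an unadjusted p (2.73% of all genes), and the median difference was -0.22. Il6 stood at 28.4, 39.5, 29.5 and 33.3 in C2, C5, D2 and D5 and at 41.5, 39.6 and 42.3 in F3, M1 and M3, so all CS mice lay below, by a small margin for C5 (difference -0.33, SE 0.13, adjusted p = 0.545, limma). The 6 cells of F1 held 14.2, below every CS mouse, and with all 8 mice the Il6 difference was 0.032. Ccl9 also lay below in all CS mice, while Ccl3 (-0.23), Ccl4 (-0.16) and Il1b (-0.35) overlapped. Leaving out 1 mouse gave -0.40 to -0.099 for Ccl3 (without F3 and M3), -0.34 to -0.0062 for Ccl4 (without F3 and M3) and -0.56 to -0.13 for Il1b (without M1 and F3), and Ccl4 was at 0.025 after quantile normalization. Il4 overlapped as well, at 22.2, 28.5, 20.1 and 30.6 in the CS mice and 15, 24.9 and 27.0 in the RA mice, with a difference of 0.20 that was -0.053 without F3. Tnf differed by 0.15 in the Mast-labelled cells and by -1.06 in classical monocytes, and the difference between these effects was 1.21 (SE 0.29, adjusted p = 0.393, limma). The sign of the first value was not stable, at -0.14 without M3 and -0.15 in edgeR.

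The basophil list, all 8 genes of which were tested, had 0 passing at either threshold, 4 higher by sign and a median difference of -0.01. Of the 6 mast list genes that were tested 0 passed, 1 (Cpa3) was lower at an unadjusted p (2.73% of all genes), and the median was -0.02. Prss34 differed by -0.75 but with an SE of 0.50, since F3 at 11.1 and C5 at 3.94 stood apart from the other mice (0.523 to 1.99), and without F3 it was -0.02. Of 14 immediate-early genes 0 passed, 5 were higher by sign (56.6% of all genes), 3 were lower at an unadjusted p (2.73% of all genes) and the median was -0.06. Nr4a1 (-0.42, or -0.28 without C2) lay lower in all CS mice than in F3, M1 and M3, but F1 held 2.48, within the CS range. Jun (-0.49) overlapped, was -0.72 to -0.29 when 1 mouse was left out (-0.29 without M1) and 0.21 with all 8 mice. Fos (0.30), Egr1 (0.21) and Dusp1 (0.16) were higher by value and overlapped. C2 was the highest mouse for Egr1, at 22.5 against 13.7 to 15.8 in the other CS mice. It was also highest for Dusp1, at 14.2 against 7.96 to 10.6. Of 8 NF-κB feedback genes 0 passed, 3 were higher by sign, 1 was lower at an unadjusted p (2.73% of all genes) and the median was -0.10. That gene, the inhibitor gene Nfkbia, lay lower in all CS mice (3.13% of all genes), at 40.7 to 49.5 against 53.1 to 62.5, a difference of -0.31 (adjusted p = 0.540, limma).

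Genes known to respond to smoke components were low or without a call. Of the 12 targets of the aryl hydrocarbon receptor and of NRF2, 6 were tested, 0 passed, and the median difference was 0.01. Cyp1a1 was at 0.0259, Cyp1b1 at 0 and Ahrr at 0.00368, below the filter in both groups. Gsr (glutathione reductase) stood at 38.6 against 18.5 in neutrophils. Txnrd1 differed by 0.32 at an adjusted p of 0.565 (limma), or by 0.20 to 0.39 when 1 mouse was left out. Interferon-stimulated genes (4 of 11 tested) had a median of 0.17, MHC class I genes (4 tested) -0.11, chaperones (12 tested) -0.09 and cytosolic ribosomal protein genes (80 tested) -0.06, all with 0 passing. Oasl2 of the interferon list passed the filter through CS only, with D5 at 1.45, so nothing is read from that median. Hspd1, Rpl7l1 and Srxn1 of the chaperone, ribosomal and NRF2 lists passed through RA only. Metallothionein Mt1 lay above in all CS mice but at 0.270 against 0.109, and differed by 0.19, or by 0.03 with equal cell numbers per mouse, and it passed the filter through CS only. F1 held 3.30, above every CS mouse, and with all 8 mice the Mt1 difference was -0.30.

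Whether exposure differences in the Mast-labelled cells departed from those of classical monocytes was tested across the same 3996 genes. No gene passed (0%), and 303 (7.58%) had an unadjusted p under 0.05, with 0.0883 the smallest adjusted p (limma), that of Morrbid. Ctnna3 and Tnf, given above for this comparison, were chosen by name and not by rank. The monocyte values come from the same libraries, so both effects share any property of a library. One such property is sex. The CS libraries labelled male, C2 and C5, held Xist at 6.63 and 7.80 in these cells and Ddx3y at 0 and 0.0391, and those labelled female, D2 and D5, held Xist at 0 and 0.0146 and Ddx3y at 1.03 and 0.958, which goes against the sex labels of the CS mice while the RA labels matched.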

How the data were processed

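Per the study's methods, the authors trimmed the reads, aligned them with STAR 2.7.3a (STARsolo) to GRCm38.p6, summed spliced and unspliced UMIs, removed free RNA with SoupX, filtered, clustered and annotated cells. The deposited matrix therefore holds estimated counts per gene and cell (33027 genes, 1.28% of values whole within 1e-06). The deposited cell table gives the count of genes per cell, the percent of mitochondrial UMIs as the authors computed it, and the labels used here. The strand setting of the counting is not given in the sources used here.

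Counts were scaled to 10,000 per cell and averaged per mouse over the Mast-labelled cells. The members' UMIs per mouse came to 39535 to 979428, so values of F1 (6 cells) are imprecise. Exposure was tested with limma 3.58.1 (R 4.3.3) on log2(mean + 1) with Benjamini-Hochberg adjustment at 0.05, for genes detected in 10% or more of the members of CS or of RA. Mice with fewer than 20 such cells were left out, which left 4 CS against 3 RA mice where all 8 had been planned. Single values were compared by two-sided exact permutation tests over mice. In all these tests the mouse and not the cell was the unit. The script was tested on simulated data. edgeR 4.0.16 was run on summed, rounded counts. Sub-clusters came from scanpy 1.11.5 and leidenalg 0.10.2 (1000 variable genes, 20 components, 15 neighbours, resolution 0.5). Gene coordinates are those of the GENCODE annotation of GRCm38 and promoters those of RefSeq. The members and gene lists were chosen with earlier results of these data known. Named are genes of the lists, the 25 genes with the highest ratio to any other label of at least 50 cells, and, as fewer than 10 genes passed, the 10 higher and 10 lower genes with the smallest unadjusted p. Alternatives covered pseudocount, filter, scaling, depth, cell number, sex, lane and leaving out each mouse.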

Additional observations from a re-analysis of the deposited data

Results flagged for a closer look

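Groups of 4 mice were examined for a mouse far from the others by Dixon's ratio, 96 in all: 6 of single values, 42 of gene levels in CS, and 48 of summed marker lists in CS or RA (transcripts per 10,000 UMIs in the Mast-labelled cells). All 13 cases were among the 48 list sums. For normally distributed values chance alone flags about 1 in 20 groups, a rate that need not hold for sparse sums. F1, with 6 cells, accounted for 6 of the RA values: it was highest for the basophil list (217), the monocyte list (27.4), the alveolar macrophage list (27.0), the platelet list (3.84) and the leukocyte list (21.6), and lowest for the neutrophil list (0.276). Chil3, an alveolar macrophage gene, stood at 26.8 in F1 and was found in 16.7% of its cells, which is 1 cell. Among the other RA mice, M3 was highest for the B cell list (0.90), and M1 for the interstitial macrophage list (0.0124) and the erythroid list (11.2). Among the CS mice, C5 was highest for the neutrophil list (12.6) and the interstitial macrophage list (0.0280), D5 for the club cell list (14.8), and C2 for the leukocyte list (16.2). The interstitial macrophage list was at 0 in every mouse except C5 and M1, so any value above 0 would be flagged there. F1 entered none of the gene tests in the main comparison.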

How the results depend on the processing

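Of 1029 alternative values for 43 named genes, 1015 kept their direction and side of the threshold. With all 8 mice the sign turned for Lyz2 (-0.35), Il6 (0.032), Jun (0.21), Mt1 (-0.30) and Fcer1a (-0.13). It also turned for Ccl4 after quantile normalization (0.025), for Fcer1a after thinning (-0.015) and in edgeR (-0.031), and for Tnf in edgeR (-0.15). Leaving out 1 mouse gave -0.053 to 0.35 for Il4 (lowest without F3), -0.073 to 0.14 for Fcer1a and -0.14 to 0.32 for Tnf (both lowest without M3). None of these had passed. Ctnna3 passed after thinning to 1000 UMIs (0.96, adjusted p = 0.0437) and with sex by Xist and Ddx3y as a term (0.83, adjusted p = 0.0232), where limma called 1 gene each. Leaving out 1 mouse gave 0 to 1 genes, the 1 being Rpl7-ps7 without F3 (adjusted p = 0.0419, named after its values were seen). The adjusted p of Ctnna3 ran from 0.0232 to 0.820. The difference from monocytes gave 0 genes in every alternative run. Leaving out 1 mouse moved the difference in share from 0.273 to 6.83 points, in median UMIs from -1263 to -326, and in the thinned marker share from -3.37 to 1.29, where it turned sign without D5 (0.0663) and without F1 (1.29). The gene filter set the count at an unadjusted p under 0.05, which was 850 of 22253 genes without a filter and 169 of 1721 at 25% of cells. All 8 mice, sex by Xist and Ddx3y, sub-clusters left out and edgeR were alternatives chosen after seeing the data.

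Lanes carry 1 CS and 1 RA mouse each. The deviations of same-lane mice had correlations of -0.0836, -2.9e-05 and 0.0535, with lane 1 absent because F1 was left out. Pairs from different lanes ranged from -0.177 to 0.162. Whether same-lane mice share more than a lane cannot be told from so few pairs. With lane as a replicate block limma called 0 genes and counted 284 at an unadjusted p under 0.05, and the paired exact permutation tests over the 4 lanes gave p = 0.625 for the share (3.65 points) and p = 0.125, the smallest that 4 pairs allow, for median UMIs (-916). Depth limits low genes: 0 of 1207 cells allows up to 0.249%.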

Other observations

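Of the 2 reporter transgenes, eGFP gave a signal in these cells although they are not of the alveolar type 2 lineage. eGFP stood at 3.15 in the Mast-labelled cells with a UMI in 59.5% of them, against 72.3 in alveolar type 2 cells. The other transgene, tdTomato, stood at 1.87 with a UMI in 44.0%. Its highest level in another label was 2.87, in pulmonary neuroendocrine cells, so tdTomato is not read as a signal of that lineage. The part of free RNA in these values was not tested.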
